A study of Mus musculus with 6 samples.

Results

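The immune checkpoint genes Cd274, Pdcd1lg2, Pdcd1, Ctla4, Lag3, Tigit, Havcr2, Vsir, Ido1 and Lgals9 were examined in RNA-seq of mouse colon tumors. They were selected by gene symbol, and all 10 were found among the 54532 genes of the authors' table. The tumors came from Tmem173fl/fl mice (3 tumors) and from Tmem173iΔmye mice (3 tumors), in the latter of which STING, the product of Tmem173, can be deleted in myeloid cells. Every mouse carried loxP-flanked Tmem173, including the group that the labels call WT. Every mouse also received azoxymethane, a mutagen, and then 3 cycles of dextran sodium sulfate, a colitis-inducing agent. Together (AOM/DSS) they give colitis-associated carcinoma. Tamoxifen (TAM) was given to every mouse once tumors had formed. Tmem173iΔmye mice differed by a Cre recombinase that is activated by TAM and driven by the Lyz2 promoter, which is active in macrophages, monocytes and neutrophils and only in part of the dendritic cells (DCs). The age of these mice at sampling is not given in the labels. Whether each tumor came from a separate mouse is not stated in the labels either, so p-values measure the spread between these tumors. In such whole-tumor RNA, fewer cells of a type cannot be told apart from less RNA per cell.

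Gene counts summed to 15329810 in the shallowest tumor and 16533732 in the deepest. Epithelial markers were abundant in all tumors, with 10 of 10 tested and Epcam at a mean FPKM of 958. Tmem173 itself ran from 102 to 194 CPM (counts scaled to the library total) in Tmem173fl/fl and from 124 to 145 CPM in Tmem173iΔmye tumors. Its log2 fold change was 0.0015 (SE 0.24, adjusted p = 1.0 from edgeR), so the targeted gene does not separate the groups in bulk tumor RNA. Y-linked genes were read (2655 to 3547 counts) in 1 of the 3 Tmem173fl/fl tumors and in 2 of the 3 Tmem173iΔmye tumors, and had at most 2 counts in the others. Tmem173iΔmye replicate 1 stood apart in interferon-related genes, and results that rest on it are given with and without it. All fold changes are Tmem173iΔmye over Tmem173fl/fl.

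Immune checkpoints are brakes on lymphocytes. A receptor on the T cell (PD-1, CTLA-4, LAG-3, TIGIT or TIM-3) meets a ligand on a tumor, myeloid or stromal cell, and the signal that follows dampens T cell activation. Antibodies against some of these pairs are used to treat cancer. PD-L1 and IDO1 are also textbook products of interferon-gamma signalling, in which the factor IRF1 is induced, so their RNA is often read as a trace of local T cell activity.

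Levels between genes were compared as FPKM (fragments per kilobase of gene, scaled to library size). Lgals9, which encodes galectin-9, a ligand of TIM-3 made also by epithelium, was the most abundant, with FPKM values between 71.2 and 173. Ido1 and Cd274 followed by mean, at 27.1 and 5.25 FPKM, but the means of both were set by 1 tumor. By the median over tumors, Ido1 was at 5.51, Vsir at 4.50 and Cd274 at 3.34 FPKM. Ido1 exceeded Cd274 in 4 of 6 tumors and Cd274 exceeded Vsir in 2 of 6, so the order of these neighbours differed from tumor to tumor. The receptors were lower, with mean FPKM of 2.13 for Havcr2, 1.46 for Ctla4, 1.39 for Lag3, 1.34 for Pdcd1 and 1.02 for Tigit. From Ctla4 to Tigit, each gene exceeded the next in 3 or 4 of 6 tumors, so these 4 receptors could not be ranked beyond their spread. Pdcd1lg2 was lowest, with a mean of 0.461 FPKM, and was the only one of the 10 under the limit of 0.5 above which 16426 genes were tested. It was fitted together with all 30939 genes that had any count.

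**Figure D1:**
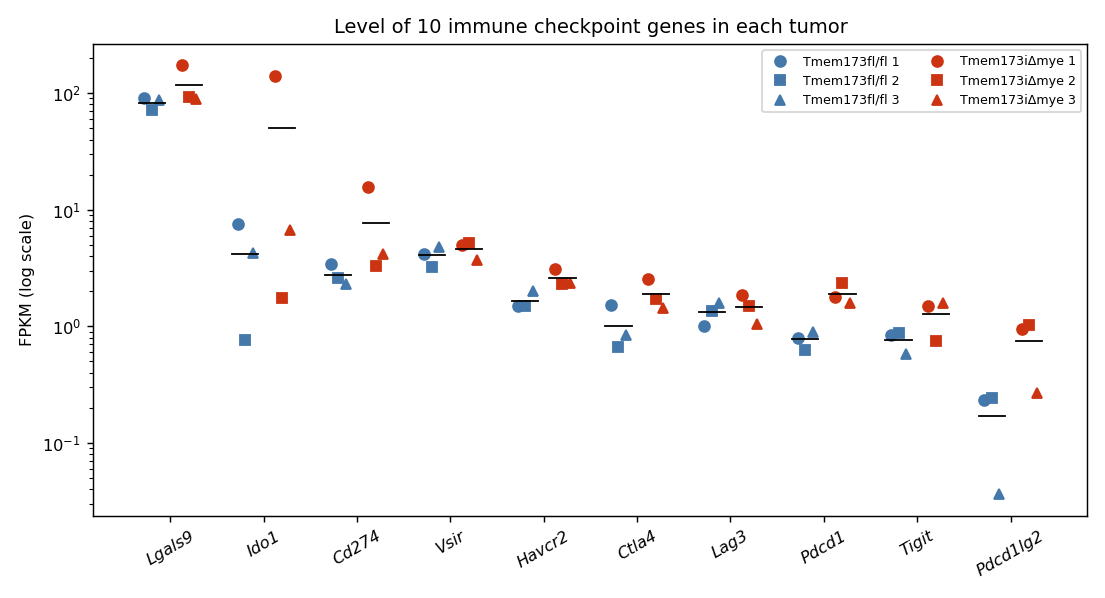
FPKM (log scale) of each immune checkpoint gene in the 3 Tmem173fl/fl (blue) and 3 Tmem173iΔmye (red) tumors, where marker shapes give the replicate and black lines the group means. Tmem173iΔmye replicate 1 stands far above the other tumors for Ido1 (141 FPKM) and Cd274 (15.7 FPKM), and the groups are separate for Pdcd1, Havcr2 and Pdcd1lg2.

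The ligand PD-L1 is encoded by Cd274 on the plus strand of chromosome 19 (29367455 to 29388095, GRCm38). Cd274 had 192, 141 and 141 counts in replicates 1 to 3 of Tmem173fl/fl and 906, 191 and 237 counts in replicates 1 to 3 of Tmem173iΔmye tumors. Replicate 1 of the latter held 49.9% of the CPM summed over the 6 tumors, and its other replicates lay at 12.04 and 15.1 CPM against 8.46 to 12.5 CPM in Tmem173fl/fl, with overlap. In edgeR this gave 1.47 on the log2 scale (SE 0.60, adjusted p = 0.753 from edgeR), and without that tumor it was 0.42 (SE 0.26, adjusted p = 1.0 from edgeR).

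Pdcd1lg2, which encodes PD-L2, the other ligand of PD-1, starts 22823 bases downstream of Cd274 on the same strand (29410919 to 29471157), with no listed gene between them. It had 6, 6 and 1 counts in Tmem173fl/fl and 25, 27 and 7 counts in Tmem173iΔmye tumors. The groups did not overlap, although the lowest Tmem173iΔmye tumor was 1 count above the highest Tmem173fl/fl tumors. On the log2 scale the difference was 2.13 (SE 0.69, adjusted p = 0.769 from edgeR), and without Tmem173iΔmye replicate 1 it was 1.92 (SE 0.79, adjusted p = 0.946 from edgeR). Unlike Cd274, Pdcd1lg2 was about as high in Tmem173iΔmye replicate 2 (1.70 CPM) as in replicate 1 (1.58 CPM). The FPKM of Cd274 was 14.5, 10.7 and 64.0 times that of Pdcd1lg2 in the Tmem173fl/fl and 16.5, 3.21 and 15.4 times in the Tmem173iΔmye tumors. These ratios overlapped between the groups (log2 difference -1.20, exact two-sided permutation p = 0.6, where 3 against 3 allow no p below 0.1). The ratio of 64.0 rests on a single Pdcd1lg2 count. The log2 difference was -0.50 with 0.1 added to both FPKM values, -0.42 without Tmem173fl/fl replicate 3 and -0.43 without Tmem173iΔmye replicate 2.

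Ido1 encodes the enzyme that begins the breakdown of tryptophan to kynurenine, which starves and restrains T cells (chromosome 8, 24584136 to 24597009, minus strand). Its counts were 213, 21 and 131 in Tmem173fl/fl and 4098, 51 and 194 in Tmem173iΔmye tumors. Tmem173iΔmye replicate 1 therefore held 87.0% of the summed CPM, 18.7 times the next highest tumor, while the remaining tumors of both groups were interspersed. The lowest and the highest tumor differed 185-fold, the widest range of the 10 genes. With all tumors the difference was 3.57 on the log2 scale (SE 1.71, edgeR adjusted p = 0.753), and it went to 0.0091 (SE 0.93, edgeR adjusted p = 1.0) without this tumor.

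Lgals9 (chromosome 11, 78962974 to 78984946, minus strand) varied less. It had 3008, 2277 and 3098 counts in Tmem173fl/fl and 5861, 3135 and 2989 counts in Tmem173iΔmye tumors. Again only Tmem173iΔmye replicate 1 was far from the rest, at 1.87 times the next highest tumor. In edgeR it was at 0.51 log2 units (SE 0.27, adjusted p = 0.753 from edgeR) with this tumor and 0.12 (SE 0.16, adjusted p = 1.0 from edgeR) without it.

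**Figure D2:**
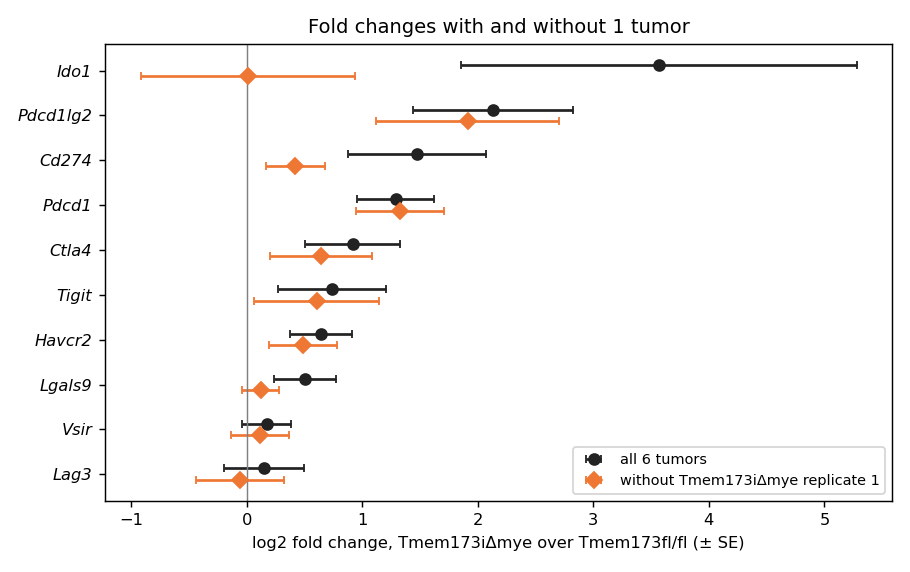
Log2 fold change with its SE (bars) for each gene, from all 6 tumors (black circles) and without Tmem173iΔmye replicate 1 (orange diamonds). Ido1 moves from 3.57 to 0.0091 and Cd274 from 1.47 to 0.42, while Pdcd1 stays at 1.29 and 1.33.

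Since Cd274, Ido1 and Lgals9 were all highest in the same tumor, they were set beside the interferon-gamma axis. Being highest there was not particular to these genes. Ctla4, Havcr2 and Lag3 were also highest in Tmem173iΔmye replicate 1, at 1.49, 1.33 and 1.16 times the next highest tumor. Ifng, the cytokine gene itself, had 50 counts in Tmem173iΔmye replicate 1, against 0, 0 and 2 in Tmem173fl/fl and 0 and 3 in the other Tmem173iΔmye tumors. No fold change is given for Ifng, since every Tmem173fl/fl tumor was at or under 3 counts. Irf1 had 2677, 1262 and 1928 counts in Tmem173fl/fl and 5694, 2217 and 2574 counts in Tmem173iΔmye tumors. It was highest where Ifng was highest.

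Promoter sequence was read from RefSeq (GRCm38.p6) for the 8 of the 10 genes that its table held, all but Ido1 and Lag3. A pair of GAAA with any 2 bases between them, the core of the interferon-stimulated response element, and TTC and GAA with any 3 bases between them, the core of the gamma-activated site, were searched on both strands of the 250 bases before the start. Of all 32851 promoters, 2.98% held the first and 7.02% the second. Lgals9 alone among the 8 held the first, on the strand opposite to the gene from 55 to 46 bases before its start, and none held the second. Promoter stretches of Cd274 and Lgals9 are given below from 150 to 26 bases before the start, with the match in capitals. They lie at chr19:29367288-29367412 on the plus strand for Cd274 and at chr11:78984950-78985074 on the minus strand for Lgals9, 125 bases each. A match is a description of these letters and not of binding, and the absence of a match in Cd274 concerns this window alone.
Cd274: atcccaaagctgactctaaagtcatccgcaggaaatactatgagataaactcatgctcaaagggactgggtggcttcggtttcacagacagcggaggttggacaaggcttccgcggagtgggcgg
Lgals9: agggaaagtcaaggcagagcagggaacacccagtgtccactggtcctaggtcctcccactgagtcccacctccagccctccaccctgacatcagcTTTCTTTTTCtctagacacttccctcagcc

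PD-1, the receptor for PD-L1 and PD-L2 that is induced on activated and exhausted T cells, is encoded by Pdcd1 (chromosome 1, 94038305 to 94052553, minus strand). Pdcd1 had 24, 18 and 29 counts in Tmem173fl/fl and 55, 72 and 48 counts in Tmem173iΔmye tumors. As CPM these were 1.5 ± 0.275 (SD, n = 3) and 3.69 ± 0.764 (SD, n = 3), and every Tmem173iΔmye tumor lay above every Tmem173fl/fl tumor. The log2 fold change was 1.29 (SE 0.33), or 2.45-fold, with an unadjusted p of 0.0048 and an adjusted p of 0.753 from edgeR. This difference was not carried by Tmem173iΔmye replicate 1, since without it the log2 fold change was 1.33 (SE 0.38, adjusted p = 1.0 from edgeR). Leaving out any single tumor gave values between 1.12 and 1.42.

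Havcr2 encodes TIM-3, found on exhausted T cells and also on DCs and macrophages (chromosome 11, 46454935 to 46481255, plus strand). It had 63, 61 and 91 counts in Tmem173fl/fl and 135, 101 and 101 counts in Tmem173iΔmye tumors. The groups did not overlap, at 4.54 ± 0.797 (SD, n = 3) and 7.11 ± 1.23 (SD, n = 3) CPM. The log2 fold change was 0.64 (SE 0.27, adjusted p = 0.753 from edgeR) and 0.49 (SE 0.29, adjusted p = 1.0 from edgeR) without Tmem173iΔmye replicate 1.

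Ctla4 encodes the receptor that competes with CD28 for CD80 and CD86 and is carried at high level by regulatory T cells (chromosome 1, 60887000 to 60915832, plus strand). It had 55, 23 and 33 counts in Tmem173fl/fl and 95, 64 and 53 counts in Tmem173iΔmye tumors, and the groups overlapped at Tmem173fl/fl replicate 1. Its difference was 0.92 on the log2 scale (SE 0.41, adjusted p = 0.753 from edgeR), and 0.64 (SE 0.44) without Tmem173iΔmye replicate 1. The pseudogene Rpl18-ps1 lies within the span of Ctla4 on the same strand, with 5 to 12 counts per tumor. Foxp3, the regulatory T cell factor, had 27, 8 and 21 counts in Tmem173fl/fl and 33, 38 and 18 counts in Tmem173iΔmye tumors.

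Tigit, which encodes a receptor of T and natural killer cells for CD155 (chromosome 16, 43648867 to 43664146, minus strand), had 12, 12 and 9 counts in Tmem173fl/fl and 22, 11 and 23 counts in Tmem173iΔmye tumors. Replicate 2 of the latter lay among the Tmem173fl/fl tumors, and the log2 fold change was 0.74 (SE 0.47, adjusted p = 0.759 from edgeR). Lag3, whose product binds MHC class II (chromosome 6, 124904361 to 124911705, minus strand), had 33, 43 and 56 counts in Tmem173fl/fl and 62, 50 and 35 counts in Tmem173iΔmye tumors. The tumors of both groups were mixed, at 0.15 on the log2 scale (SE 0.35, edgeR adjusted p = 0.923) and a 95% interval from -0.53 to 0.83. Its sign turned without Tmem173fl/fl replicate 1 (-0.0094) or Tmem173iΔmye replicate 1 (-0.058). At 9 to 62 counts per tumor, the depth for Tigit and Lag3 allows only coarse comparisons.

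Vsir encodes VISTA, a checkpoint of resting T cells and of myeloid cells (chromosome 10, 60346851 to 60372684, plus strand). It had 328, 242 and 405 counts in Tmem173fl/fl and 393, 418 and 291 counts in Tmem173iΔmye tumors, the narrowest range of the 10 genes at 1.63-fold between the lowest and highest tumor. The log2 fold change was 0.17 (SE 0.21, adjusted p = 0.848 from edgeR), with a 95% interval from -0.25 to 0.59. Vsir lies inside Cdh23 on the opposite strand, and Cdh23 had at most 10 counts in any tumor.

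T cell genes leaned the same way as the receptors. Of the 17 T cell markers, 14 were tested. Among these, 13 lay above 0 in log2 fold change (median 0.59), against 49.4% of all genes tested. None of these markers had an adjusted p under 0.05 from edgeR. Trac (log2 fold change 0.82, SE 0.36) alone was higher at an unadjusted edgeR p under 0.05, against 3.06% of all genes tested. Without Tmem173iΔmye replicate 1 the median was 0.43, and Trac was at 0.53 (SE 0.36). No marker was at 0 in all tumors. Their summed CPM ran from 40.5 to 83.9 in Tmem173fl/fl and from 63.6 to 87.6 in Tmem173iΔmye tumors. Cd3e had 54, 16 and 31 counts and 50, 64 and 31 counts, and Cd8a, a marker of cytotoxic T cells, had 48, 11 and 20 counts and 72, 25 and 33 counts.

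Natural killer cell markers, which cytotoxic T cells share in part, also leaned higher. Of 8, 3 were tested and all 3 lay above 0, against 49.4% of all genes tested. The median log2 fold change of these 3 was 1.26, and 0.57 without Tmem173iΔmye replicate 1. The summed CPM of the 8 ran from 3.20 to 8.0 in Tmem173fl/fl and from 10.5 to 17.6 in Tmem173iΔmye tumors, without overlap (exact permutation p = 0.1). Gzmb, which encodes the cytotoxic protease granzyme B, had 49, 26 and 23 counts in Tmem173fl/fl and 120, 83 and 89 counts in Tmem173iΔmye tumors. It was at 1.55 (SE 0.38, edgeR adjusted p = 0.753) with all tumors and at 1.37 (SE 0.42, edgeR adjusted p = 1.0) without that one. For tumors of Tmem173iΔmye mice after late deletion, the paper reports lower Gzmb, Perforin and Cd8 by qPCR and fewer stained CD8+ cells. From gene set analysis of tumor RNA-seq it also reports inhibited T cell activation and cytotoxicity. No gene set was tested here. Gzmb leaned the other way in these RNA-seq counts. Cd8a did so at 0.70 (SE 0.62) with all tumors, but only at 0.12 (SE 0.64) without Tmem173iΔmye replicate 1. The cause was not tested. Ncr1, a defining receptor of natural killer cells, had at most 5 counts in any tumor. Gzmb and Ncr1 were picked after their values were seen.

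Each receptor was therefore set against the summed counts of Cd3d, Cd3e and Cd3g, which are subunits of the T cell receptor complex. The sums were 155, 41 and 99 in Tmem173fl/fl and 199, 213 and 100 in Tmem173iΔmye tumors. Pdcd1 counts per Cd3 count were 0.155, 0.439 and 0.293 in Tmem173fl/fl and 0.276, 0.338 and 0.480 in Tmem173iΔmye tumors. The groups overlapped on this scale, with a log2 difference of 0.39 (exact permutation p = 0.5). That difference became -0.013 without Tmem173fl/fl replicate 1, so the separation seen as CPM was not seen per Cd3 count. With Ptprc, the gene of the pan-leukocyte marker CD45, as the denominator, the groups were separate for Pdcd1 (log2 difference 1.07, exact permutation p = 0.1), as they were in CPM. They were also separate for Ctla4 (0.74, exact permutation p = 0.1), whose groups overlapped in CPM and per Cd3 count.

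Per Cd3 count, the log2 difference was 0.065 for Ctla4 (exact permutation p = 1.0), -0.22 for Tigit (exact permutation p = 0.8), -0.26 for Havcr2 (exact permutation p = 0.8) and -0.77 for Lag3 (exact permutation p = 0.4). All of these overlapped. Lag3 per Cd3 count was highest in Tmem173fl/fl replicate 2, at 1.05, where the Cd3 genes were lowest. The difference of Lag3 was -0.24 without that tumor, -1.39 without Tmem173fl/fl replicate 1 and -0.089 over Ptprc.

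**Figure D3:**
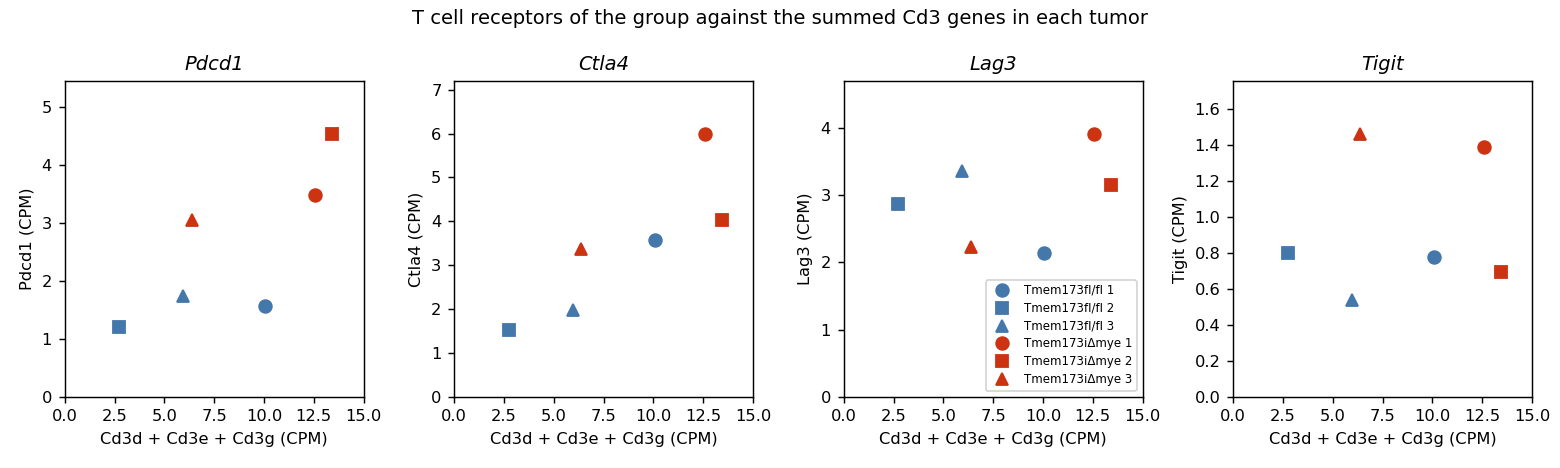
CPM of Pdcd1, Ctla4, Lag3 and Tigit against the summed CPM of Cd3d, Cd3e and Cd3g in each tumor (Tmem173fl/fl blue, Tmem173iΔmye red, marker shape for the replicate). Ctla4 climbs with the Cd3 genes, Lag3 and Tigit are scattered, and the 3 Tmem173iΔmye tumors lie above the Tmem173fl/fl tumors for Pdcd1.

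The receptors were also related to T cell RNA over the 6 tumors, and no relation had an adjusted p under 0.05 in the exact permutation test. Between log2(CPM + 1) of Ctla4 and of the summed Cd3 genes, r was 0.891 (Pearson, exact permutation p = 0.017, adjusted 0.056 over 10 relations computed) and rho was 0.943 (Spearman, exact permutation p = 0.017, adjusted 0.083), and r was 0.877 without the 2 farthest tumors. For Pdcd1, r was 0.740 (exact permutation p = 0.097, adjusted 0.16) and rho was 0.829 (exact permutation p = 0.058, adjusted 0.15), and r was 0.282 without the 2 farthest tumors, so the relation rested on them. For Lag3, r was 0.215 (exact permutation p = 0.69, adjusted 0.77) with rho 0.20 (exact permutation p = 0.71, adjusted 0.79). For Tigit, r was 0.159 (exact permutation p = 0.77, adjusted 0.77) with rho -0.029 (exact permutation p = 1.0, adjusted 1.0). Without the 2 farthest tumors, r was 0.287 for Lag3 and 0.336 for Tigit.

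Havcr2 and Vsir, which myeloid cells also express, were compared with the summed macrophage genes C1qa, C1qb, C1qc, Csf1r and Adgre1. For Vsir, r was 0.914 (exact permutation p = 0.014, adjusted 0.056) and rho was 0.886 (exact permutation p = 0.033, adjusted 0.11), and r was 0.902 without the 2 farthest tumors. For Havcr2, r was 0.652 (exact permutation p = 0.17, adjusted 0.21) with rho 0.600 (exact permutation p = 0.24, adjusted 0.35), and r was -0.079 without the 2 farthest tumors. The 14 macrophage and monocyte markers summed to 649 to 953 CPM in Tmem173fl/fl and 627 to 1017 CPM in Tmem173iΔmye tumors. Of these markers, 10 had a log2 fold change above 0, against 49.4% of all genes tested. The part of these cell types in the differences of the checkpoint genes was not tested further.

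All 10 checkpoint genes leaned higher in Tmem173iΔmye tumors, that is, above 0 in log2 fold change (median 0.83). Among the 16426 genes tested, 49.4% were above 0 and the median was -0.0042, and in the fit of all genes with a count, used for Pdcd1lg2, 47.6% were. Without Tmem173iΔmye replicate 1, 9 of 10 were above 0 with a median of 0.45, where 46.9% of all genes were above 0. None of the 10 had an adjusted p under 0.05 from edgeR, against 0.0% of the tested genes and 0.00646% of all genes with a count. DESeq2 called 0.17% of the tested genes and 0 of the 10. An unadjusted p under 0.05 with a higher level was found for 4 (Pdcd1lg2, Pdcd1, Havcr2 and Cd274), against 3.06% of the tested genes and 2.58% of all genes with a count. A log2 fold change of at least 1 with an unadjusted p of at most 0.05, the study's threshold, was met upward by 3 (Cd274, Pdcd1 and Pdcd1lg2) and downward by 0, against 1.1% and 0.834% of the tested genes (upward 1.09% of all genes with a count). Without Tmem173iΔmye replicate 1, Pdcd1 and Pdcd1lg2 met it, against 0.773% upward. Cd274 also missed it without any single Tmem173fl/fl tumor, with an unadjusted edgeR p from 0.077 to 0.12. The groups did not overlap, with Tmem173iΔmye higher, for 3 genes (Pdcd1, Havcr2 and Pdcd1lg2), against 6.03% of the tested genes and 4.31% of all genes with a count. The opposite separation was found for 0, against 6.47%. These counts are descriptions, since the genes were chosen with earlier results known.

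The highest of the 6 tumors was Tmem173iΔmye replicate 1 for 6 genes, against 24.9% of all genes, replicate 2 for 3 and replicate 3 for 1. The lowest was Tmem173fl/fl replicate 2 for 6 genes, against 27.1% of all genes. That tumor also had the fewest counts of the Cd3 genes.

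Partner genes were then described from a list of 36 ligands, receptors and further checkpoints, of which 27 were tested. Of these, 17 lay above 0 and 10 below (median log2 fold change 0.066), against 49.4% of all genes tested above 0, and 0 had an adjusted p under 0.05. Icos, a costimulatory receptor of activated T cells, was at 0.81 (SE 0.34), and Cd200, a ligand that quiets myeloid cells, at 0.49 (SE 0.21), both with an adjusted p of 0.753 from edgeR. These were the 2 genes of the list with an unadjusted edgeR p under 0.05, both higher, against 3.06% of all genes tested. H2-T23, which encodes Qa-1, the ligand of NKG2A, was at 0.78 (SE 0.42) and had 6005 counts in Tmem173iΔmye replicate 1 against 1290 to 2779 elsewhere, and without that tumor it was at 0.22 (SE 0.29). Reads of H2 genes can be divided among similar copies. Without Tmem173iΔmye replicate 1, the median of the list was -0.063 with 13 of 27 above 0, against 46.9% of all genes.

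Of 18 genes of the interferon-gamma axis, 14 were tested, and 0 had an adjusted p under 0.05. The median was 0.47 with 11 above 0, against 49.4% of all genes tested. Irf9 was at 0.47 (SE 0.15) and Stat2 at 0.67 (SE 0.29), both with an adjusted p of 0.753 from edgeR. Irf1 was at 0.83 (SE 0.42). Without Tmem173iΔmye replicate 1, 11 of 14 were again above 0, against 46.9% of all genes, and the median was 0.13. Irf9 was then at 0.34 (SE 0.15), Stat2 at 0.27 (SE 0.18) and Irf1 at 0.28 (SE 0.29).

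Most tested genes of a list around the kynurenine pathway leaned lower, while most of those under the filter lay above 0, several within their SE. Of 16 genes, 8 were tested, and 2 lay above 0 and 6 below (median log2 fold change -0.21). The 8 include transporters and other genes outside the pathway, so the median does not describe its enzymes alone. The enzymes of the pathway among them were Haao, Afmid (-0.30, SE 0.30) and Kyat1 (-0.17, SE 0.21), named for this role. Among all genes tested, 49.4% lay above 0. Under the filter, Kyat3, Kynu, Ido2, Qprt, Ahrr and Tdo2 lay above 0, Kmo lay below and Aadat had no count. These are named to complete the list. In that fit, 47.6% of all genes with a count lay above 0. For Ido2, Qprt, Ahrr and Tdo2 the SE (0.60 to 0.96) exceeded the log2 fold change (0.10 to 0.59). Ido2 was at -0.69 without Tmem173iΔmye replicate 1. Slc3a2, a subunit of amino acid transporters, was at 0.33 (SE 0.11). Ahr, the receptor that kynurenine activates, was at -0.49 (SE 0.21), and Haao, a later enzyme of the pathway, was at -1.21 (SE 0.80), and none had an adjusted p under 0.05 from edgeR. Haao had 62 counts in Tmem173fl/fl replicate 1 and 5 to 24 in the other tumors. Ahr was lower in every Tmem173iΔmye tumor, with 881, 844 and 1361 counts in Tmem173fl/fl and 565, 826 and 803 counts in Tmem173iΔmye tumors, and was lowest where Ido1 was highest. Wars, a tryptophan-charging enzyme named here after its values were seen, was the other gene above 0, with 7779 counts in Tmem173iΔmye replicate 1 and 2606 to 3417 in the other tumors. Its log2 fold change was 0.55 (SE 0.39) with that tumor and -0.058 (SE 0.19) without it, and then 1 of the 8 genes lay above 0 (median -0.17). Ido2 had at most 11 counts and Tdo2 at most 14 counts in any tumor.

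Genes of checkpoint signalling and protein stability were close to level. Of 13, 11 were tested, with 7 above 0 (against 49.4% of all genes tested), a median of 0.043 and 0 past an unadjusted p of 0.05 in edgeR. The 3 with the lowest p were Lrba, needed to recycle CTLA-4, at -0.37 (SE 0.19), Ap2m1, of the clathrin adaptor, at 0.22 (SE 0.12), and Grb2, at 0.14 (SE 0.12). Cmtm6, which protects PD-L1 from degradation, had 2611 to 2719 counts in Tmem173fl/fl and 2740 to 2885 counts in Tmem173iΔmye tumors, and is named for this role. As CPM its groups overlapped, and its log2 fold change was 0.057 (SE 0.12). Of 16 regulators of T cell exhaustion and activation, 14 were tested, with 8 above 0 (against the same 49.4%) and a median of 0.020. Tox, an exhaustion factor also expressed outside T cells, was lower in all Tmem173iΔmye tumors, at -0.50 (SE 0.20), Nfatc1 was at -0.30 (SE 0.16) and Nr4a2 at 0.37 (SE 0.20), each with an adjusted p of 0.753 from edgeR.

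**Figure D4:**
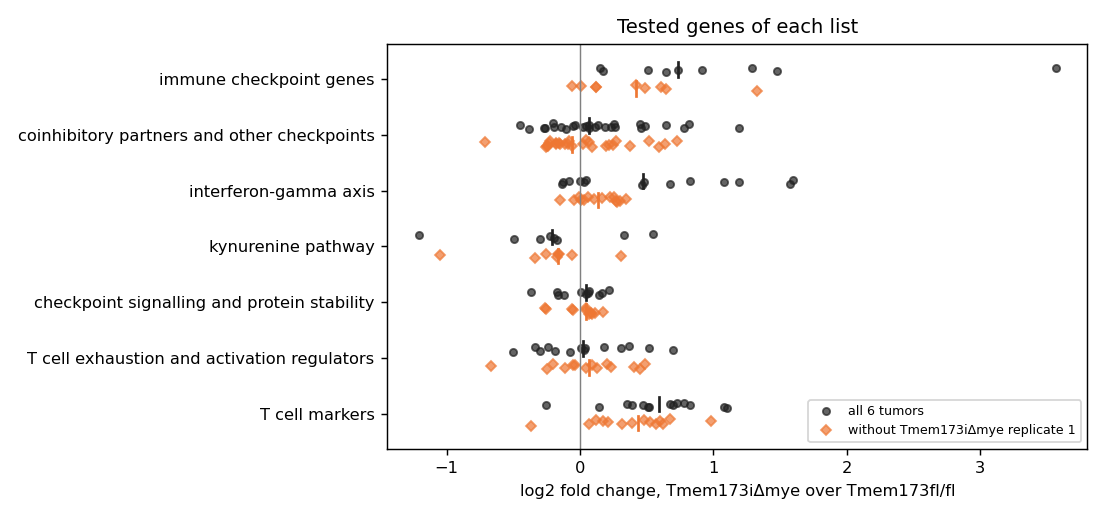
Log2 fold changes of the tested genes of each list, from all 6 tumors (black) and without Tmem173iΔmye replicate 1 (orange), where each dot is a gene, the short lines are medians and the checkpoint genes are shown without Pdcd1lg2. The interferon-gamma axis moves from a median of 0.47 to 0.13, while checkpoint signalling stays near 0.

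By pattern over the 6 tumors, the genes closest to Cd274 in Pearson's r of log2(CPM + 1) were Snrpd1, Gm9844 and Ccl4 (0.998 to 0.999), and those closest to Ido1 were Psmb8, Arfip2 and Haus7 (0.990 to 0.995). For Lgals9 they were Fam114a1, Serf2 and Txn2 (0.993 to 0.995). The receptors had Prmt2, Ttc4 and Il3ra for Pdcd1 (0.983 to 0.988), Glrx2, Med21 and Mrpl21 for Ctla4 (0.996 to 0.998) and Nfkb2, Parvb and Gm3724 for Lag3 (0.968 to 0.989). For Tigit they were Safb2, Gm23851 and Ldb2 (0.980 to 0.996), for Havcr2 Fuz, Snx20 and Gm45527 (0.989 to 0.994), and for Vsir Mxra8, Ppp1r18 and Ccl17 (0.986 to 0.993). With 6 tumors such values are common, since 250 genes exceeded 0.95 for Cd274 and 10 did for Lag3. Pdcd1lg2 was too low to be included, and none of the 10 was among the nearest 3 of the other 9.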

How the data were processed

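Tumor poly(A) RNA was sequenced from NEBNext Ultra libraries, and the strand setting of the counting is not given in the sources used here. The submitters' processing notes name CASAVA 1.8, fastp, HISAT2 2.0.5, featureCounts 1.5.0-p3, DESeq2 1.20.0 and GRCm38 (mm10). The authors deposited read counts per gene for each tumor and, beside them, FPKM values. Columns of the authors' own comparison (group means, log2 fold changes and p-values) stand in the same table and were not used.

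The robust quasi-likelihood test of edgeR 4.0.16 under R 4.3.3 compared the groups with TMM scaling and no covariate. Adjusted p-values are Benjamini-Hochberg values over all genes whose mean FPKM reached 0.5. For genes under that limit they are taken over all genes with any count. SE is the absolute log2 fold change over the square root of F, and 95% intervals are ± 1.96 SE. CPM uses TMM-scaled totals. The script was tested on simulated data. Ratios were compared by exact two-sided permutation tests (scipy 1.17.1), and relations across tumors were chosen after the values were seen. Members and lists were chosen with earlier results of these data known. The genes named are the members, Tmem173, Ifng, Irf1, Cd3e, Cd8a, Foxp3, the 3 genes of each pathway list with the lowest p, the 3 nearest genes by r and genes overlapping a member, with exceptions marked. Results on 1 further gene of this rule, including 4 of the 10 relations, are not reported here. Alternatives were DESeq2 1.42.0, limma 3.58.1 on counts (voom) and on log2(FPKM + 1) or log2(FPKM + 0.1), other filters and scalings, the replicate number as a block, Y-linked reads as a covariate and leaving out each tumor.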

Additional observations from a re-analysis of the deposited data

How the results depend on the processing

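No checkpoint gene had an adjusted p under 0.05 under the alternatives run, the lowest being 0.14 for Pdcd1lg2 with the replicate block. DESeq2 gave an adjusted p of 0.25 for Pdcd1 and 0.37 for Cd274, and none for Ido1. Pdcd1lg2 has no value with a mean FPKM of at least 1. Outside of leaving out tumors, every log2 fold change of the 10 genes that could be computed kept its direction. The number of genes past the study's threshold went from 3 to 0 with limma on log2(FPKM + 1), which shrinks low genes by construction. There Pdcd1 (0.71) and Pdcd1lg2 (0.55) missed it on size alone. Cd274 missed it on both parts, at 0.94 with an unadjusted limma p of 0.11. The number was 2 with a mean FPKM of at least 1, where Pdcd1lg2 was not tested. It was also 2 with no filter, voom, limma on log2(FPKM + 0.1) and Y-linked reads as a covariate. Cd274 lost its call in these settings, with an unadjusted p of 0.11, 0.10, 0.094 and 0.12. Cd274 also lost it without Tmem173fl/fl replicate 1 (0.077), 2 (0.12) or 3 (0.12) and without Tmem173iΔmye replicate 1 (0.15). Without single tumors it ranged from 2 to 4, the number above 0 from 9 to 10, and the number without overlap, higher in Tmem173iΔmye, from 3 to 6 (fewer tumors have to be separate). The median log2 fold change ranged from -0.038 to 0.085 for checkpoint signalling and from -0.14 to 0.12 for T cell regulators. Per Cd3 count, the log2 difference ranged from -0.013 to 0.74 for Pdcd1, from -0.096 to 0.31 for Ctla4, from -0.75 to 0.38 for Tigit, from -0.77 to 0.17 for Havcr2 and from -1.39 to -0.24 for Lag3. Over Ptprc it was 0.46 for Tigit, 0.42 for Havcr2 and -0.089 for Lag3. The Cd274 to Pdcd1lg2 log2 difference ranged from -1.71 to -0.42. The cause was not tested. Lag3 turned to -0.0094 without Tmem173fl/fl replicate 1 and to -0.058 without Tmem173iΔmye replicate 1, in a range from -0.058 to 0.34 over single tumors left out. With 9 to 72 counts per tumor for Tigit, Pdcd1 and Lag3, depth limits what could be seen.

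Same-numbered tumors deviated from their group means with correlations of 0.31, 0.0085 and 0.15, and differently numbered tumors with -0.37 to 0.22. With 3 tumors per group, these values cannot settle whether the number is a pairing. The main fit took no pairing. With the replicate number as a block, 0 checkpoint genes had an adjusted p under 0.05, 3 passed the study's threshold, and the log2 fold change was 1.28 for Pdcd1, 1.14 for Cd274 and 2.19 for Ido1.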

Other observations

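Among genes with too few reads for the filter, Eomes, a factor of cytotoxic and exhausted T cells and of natural killer cells, had 10, 4 and 3 counts in Tmem173fl/fl and 16, 15 and 22 counts in Tmem173iΔmye tumors, without overlap. Its log2 fold change was 1.61 (SE 0.63, adjusted p = 0.771 from edgeR) with all tumors and 1.67 (SE 0.70) without Tmem173iΔmye replicate 1. Klrc1, which encodes the receptor NKG2A, had 3, 3 and 2 counts in Tmem173fl/fl and 13, 7 and 7 counts in Tmem173iΔmye tumors, too few in the former for a fold change. Both genes were picked after their values were seen.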
